A study of Mus musculus with 12 samples.

Results

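The small proline-rich protein (Sprr) family was followed through mouse skin that had been injected with LL37, the active peptide of human cathelicidin, with and without rapamycin (RAPA), an inhibitor of mTORC1. The family is taken here as 10 genes, Sprr1a, Sprr1b, Sprr2a1, Sprr2a2, Sprr2a3, Sprr2d, Sprr2e, Sprr2h, Sprr3 and Sprr4, found by matching the Ensembl identifiers of the count table to gene symbols. These are 10 of 52636 genes in the table, and 9 of them passed the filter on low counts, with Sprr3 as the exception. They were chosen by measured values, with the rise over control and the difference from LL37 + RAPA already known, so their values in those comparisons are descriptions and carry no p.

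Sprr proteins are precursors of the cornified cell envelope, the cross-linked protein shell that replaces the plasma membrane of dying keratinocytes at the skin surface. Transglutaminases join their glutamine- and lysine-rich ends to loricrin, involucrin and other envelope proteins, and the proline-rich repeats between the ends act as flexible spacers. The genes lie side by side in the epidermal differentiation complex, and several of them are known to be low in resting skin and high in wounded, irritated or inflamed epidermis.

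Whole back skin was taken from female BALB/c mice at 8 weeks of age, in 4 groups of 3 independent biological samples. The groups were control mice, control mice given RAPA (control + RAPA), mice injected with LL37 (LL37) and mice injected with LL37 and given RAPA (LL37 + RAPA). By the study's methods, all mice in the model were shaved on the day before, and LL37 or control vehicle went into the dermis of the back over 2 days. Whole skin holds many cell types, so a change can come from the amount of RNA per cell or from the number of cells of a type, which cannot be told apart in these bulk libraries.

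All 18 keratinocyte markers were detected in each group, as the skin label requires. Their summed level was between 19801 and 26346 CPM in control, 22242 and 24287 in control + RAPA, 28558 and 32398 in LL37, and 23343 and 24870 in LL37 + RAPA. CPM, the count as a share of the library total on a common scale, was adjusted between libraries by TMM. Between 15734559 and 23271784 reads were counted per library, and a floor of 3 counts in a library corresponded to between 0.129 and 0.191 CPM before TMM scaling. The floor covers counting error only. Other cell lists moved with LL37 and are given at the end, and their part in the Sprr values was not tested.

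All 17 Sprr genes of the annotation that were listed here sit within 285 kilobases of mouse chromosome 3 (GRCm38, chr3:92215799-92500493). In order along the plus strand lie Sprr2a1 (chr3:92215799-92221911), Sprr2a2 (chr3:92215920-92256724), Sprr2a3 (chr3:92285417-92291405), Sprr2d (chr3:92339140-92340873), Sprr2e (chr3:92352143-92353449) and Sprr2h (chr3:92385685-92387324). On the minus strand lie Sprr1b (chr3:92436809-92438789), Sprr3 (chr3:92456502-92458720), Sprr1a (chr3:92483952-92485895) and Sprr4 (chr3:92500263-92500493).

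The stretch of 250 bases before each RefSeq start was searched on both strands for the letters TGANTCA, bound by the AP-1 factors of the Fos and Jun families, ATGCAAAT, the octamer bound by POU factors, and TATAAA, the TATA box. The first 5 sequences are shown because they share the AP-1 letters and TATAAA. The last of the sequences, from Sprr2a1, is shown because its gene was among the most raised and its window holds no match. They were taken from RefSeq on GRCm38.p6 and are written 5′ to 3′ on the strand of the gene, with matches in capitals: Sprr1a at chr3:92485882-92486131 on the minus strand, Sprr1b at chr3:92438780-92439029 on the minus strand, Sprr2d at chr3:92338890-92339139 on the plus strand, Sprr2e at chr3:92351893-92352142 on the plus strand, Sprr2h at chr3:92385435-92385684 on the plus strand, and Sprr2a1 at chr3:92215585-92215834 on the plus strand.
Sprr1a: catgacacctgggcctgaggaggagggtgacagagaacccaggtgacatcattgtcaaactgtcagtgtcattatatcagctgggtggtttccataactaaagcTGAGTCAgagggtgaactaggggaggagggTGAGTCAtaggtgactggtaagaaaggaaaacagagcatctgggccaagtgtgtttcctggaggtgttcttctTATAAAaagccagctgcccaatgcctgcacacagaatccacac
Sprr1b: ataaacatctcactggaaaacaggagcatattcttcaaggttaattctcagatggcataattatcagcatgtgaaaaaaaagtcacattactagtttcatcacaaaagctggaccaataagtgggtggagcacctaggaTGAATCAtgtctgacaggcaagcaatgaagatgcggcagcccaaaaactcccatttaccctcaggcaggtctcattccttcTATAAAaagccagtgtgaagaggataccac
Sprr2d: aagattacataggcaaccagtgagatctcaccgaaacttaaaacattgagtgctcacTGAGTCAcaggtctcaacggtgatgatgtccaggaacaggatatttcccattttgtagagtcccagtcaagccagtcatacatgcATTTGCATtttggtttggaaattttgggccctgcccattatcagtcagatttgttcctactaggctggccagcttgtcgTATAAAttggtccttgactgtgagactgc
Sprr2e: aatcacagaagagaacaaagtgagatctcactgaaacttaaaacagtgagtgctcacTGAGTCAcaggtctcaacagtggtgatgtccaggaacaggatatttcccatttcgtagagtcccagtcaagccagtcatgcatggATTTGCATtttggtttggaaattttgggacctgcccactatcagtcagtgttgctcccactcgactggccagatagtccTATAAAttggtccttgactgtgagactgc
Sprr2h: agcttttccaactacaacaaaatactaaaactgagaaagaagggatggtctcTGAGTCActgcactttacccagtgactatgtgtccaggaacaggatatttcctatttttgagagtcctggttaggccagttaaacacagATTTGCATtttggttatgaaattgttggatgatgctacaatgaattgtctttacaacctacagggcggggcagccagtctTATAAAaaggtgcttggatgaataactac
Sprr2a1: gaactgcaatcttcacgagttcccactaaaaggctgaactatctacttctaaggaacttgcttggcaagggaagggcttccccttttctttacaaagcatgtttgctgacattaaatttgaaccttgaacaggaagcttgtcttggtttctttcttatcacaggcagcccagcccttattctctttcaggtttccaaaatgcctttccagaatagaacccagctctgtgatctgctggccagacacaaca

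The AP-1 letters were found before 5 of the 10 genes, namely Sprr1a, Sprr1b, Sprr2d, Sprr2e and Sprr2h, and in 6.75% of all 32851 promoters searched. Sprr1a held 2 matches, at -146 to -140 and -116 to -110 from its start. The octamer was found before 3 of the 10, Sprr2d, Sprr2e and Sprr2h, and in 1.6% of all promoters. TATAAA was found before 6 of the 10, against 12.4% of all promoters. Sprr2d and Sprr2e held all 3 at the same distances, with AP-1 at -193 to -187, the octamer at -108 to -101 and TATAAA at -29 to -24, and their windows were identical in 88.9% of aligned bases. The window of Sprr2a2 was identical to that of Sprr2a1 in all 250 bases. The letters AACCGGTT of Grainyhead-like factors and an interferon-response motif were found before 0 of the 10 genes, against 0.116% and 2.98% of all promoters. A match is a description of the letters and not a binding site, and a window without a match says nothing about the factor.

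The coding sequences show how far reads can be told apart. Sprr2a1 and Sprr2a2 have the same 249 coding bases, and Sprr2a3 differs from them at 3, which are the capitals in the next pair (GENCODE M21 transcripts, without the stop codon).
Sprr2a1: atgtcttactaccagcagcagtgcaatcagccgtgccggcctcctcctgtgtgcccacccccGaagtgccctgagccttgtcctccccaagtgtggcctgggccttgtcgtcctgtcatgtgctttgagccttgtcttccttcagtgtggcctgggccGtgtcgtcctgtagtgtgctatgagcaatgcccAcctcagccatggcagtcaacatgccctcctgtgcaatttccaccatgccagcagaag
Sprr2a3: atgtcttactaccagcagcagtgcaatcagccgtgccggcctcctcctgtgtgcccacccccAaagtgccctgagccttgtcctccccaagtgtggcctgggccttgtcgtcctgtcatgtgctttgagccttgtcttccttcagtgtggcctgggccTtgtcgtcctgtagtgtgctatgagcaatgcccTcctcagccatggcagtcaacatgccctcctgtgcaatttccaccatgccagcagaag

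Of all stretches of 100 bases, the read length, in the transcripts of Sprr2a1 and Sprr2a2, 92.5% and 92.8% also occur in a transcript of another gene, against 36.2% for Sprr2a3 and 1.10% for Sprr2e, which shares 6 of 548 with Sprr2i. None were shared for the other 6. How reads that fit several genes were counted is not given in the sources used here, and Sprr2a1 and Sprr2a2 also overlap on the same strand in the annotation. The division of reads between Sprr2a1, Sprr2a2 and Sprr2a3 is therefore uncertain, and their sum is given as well.

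The spacer repeats can be read in Sprr2d, where capitals mark the 5 in-frame copies of GAGCCNTGN, letters that encode glutamate, proline and then cysteine or tryptophan.
Sprr2d: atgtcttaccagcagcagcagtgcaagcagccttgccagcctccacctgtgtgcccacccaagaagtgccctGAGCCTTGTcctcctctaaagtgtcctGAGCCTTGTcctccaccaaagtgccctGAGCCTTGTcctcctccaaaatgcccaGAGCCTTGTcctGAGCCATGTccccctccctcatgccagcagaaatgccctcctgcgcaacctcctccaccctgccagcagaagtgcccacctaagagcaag

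This motif occurred 12 times in Sprr1b, 11 times in Sprr1a, 7 times in Sprr2h, 4 times in Sprr2e, 2 times in Sprr2a1, Sprr2a2, Sprr2a3 and Sprr3, and 0 times in Sprr4. Proline codons made up between 17.1% of the codons in Sprr4 and 42.6% in Sprr2h. Sprr4, the member least like the rest by both counts, is annotated with 231 exonic bases, little more than its 228 coding bases.

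Control replicate 3 stood apart from the other control libraries in these genes. Among the 8 members with over 3 counts in control, it was above both of them in 8 and over 2 times both in 6, whereas 31.1% and 1.93% of all 17993 tested genes met those marks. Sprr2a2 and Sprr3 had 1 count each in control. Its level was 18.3 times the mean of the other controls for Sprr2a3, 15.3 times for Sprr2a1, 11.7 times for Sprr2e, 11.2 times for Sprr1b, 7.92 times for Sprr2d, 5.98 times for Sprr2h, and 1.83 and 1.76 times for Sprr1a and Sprr4. Some genes outside the family moved with it. Krt6b and Krt16, keratins of stressed epidermis, were 35.9 and 9.84 times the other controls, and the 15 neutrophil markers summed to 117 CPM against 44.6 and 27.3. Of the other stress keratins, Krt6a was 2.85 times the other controls and Krt17 0.996 times. The keratinocyte markers summed to 21236 CPM, between the other controls at 19801 and 26346. Values over control that change most without this library are given both ways, and what set it apart was not tested.

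**Figure D1:**
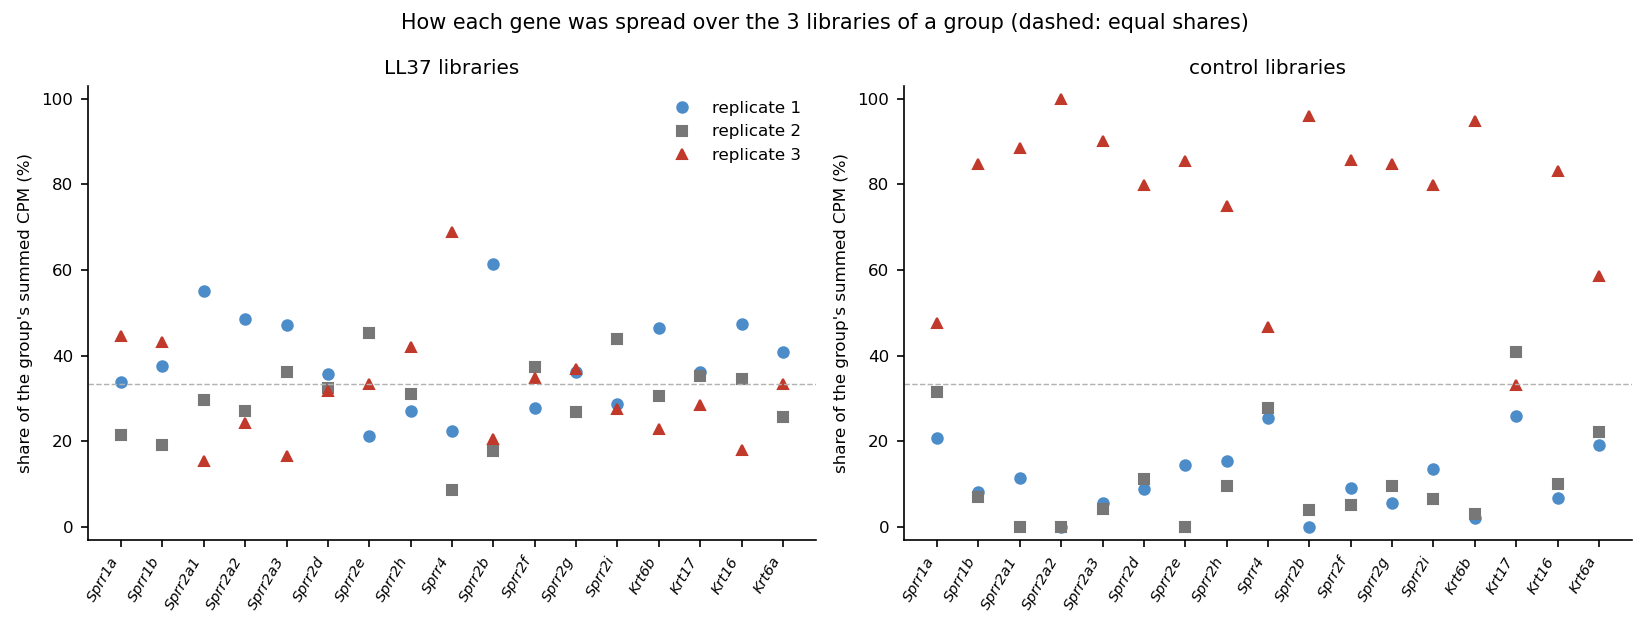
Share of each gene's summed CPM in its group that came from each of the 3 libraries (y axis, %), for the 9 tested members, 4 other Sprr genes and 4 stress keratins, in LL37 (left) and control (right). In control, replicate 3 held between 46.8 and 100% of the sum for all 9 members, while in LL37 the highest library changed from gene to gene.

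Sprr1a and Sprr1b, the cornifins, were both highest in LL37. Sprr1a read 21.0, 31.9 and 48.3 CPM in the control libraries, 43.6, 55.9 and 41.7 in control + RAPA, 136, 85.9 and 179 in LL37, and 49.9, 42.4 and 55.8 in LL37 + RAPA. Every LL37 library was above all 9 others. The log2 fold change was 1.98 (SE 0.30, n = 3 and 3) over control and 1.44 (SE 0.30) over LL37 + RAPA, a 3.96-fold and a 2.71-fold difference. Without control replicate 3, the first became 2.33.

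Sprr1b, with an annotated exon length close to that of Sprr1a, was lower than Sprr1a in every control library. Its controls read 1.89, 1.64 and 19.7 CPM, control + RAPA 5.04, 1.48 and 1.09, LL37 63.9, 32.4 and 73.4, and LL37 + RAPA 1.80, 2.50 and 5.0. LL37 did not overlap any other group, and the library labelled control replicate 3 was above all 3 LL37 + RAPA libraries. The log2 fold change was 2.87 (SE 0.84) over control, or 4.99 without that library, and 4.19 (SE 0.90) over LL37 + RAPA. The coding sequences of Sprr1a and Sprr1b are identical in 78.4% of aligned bases.

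**Figure D2:**
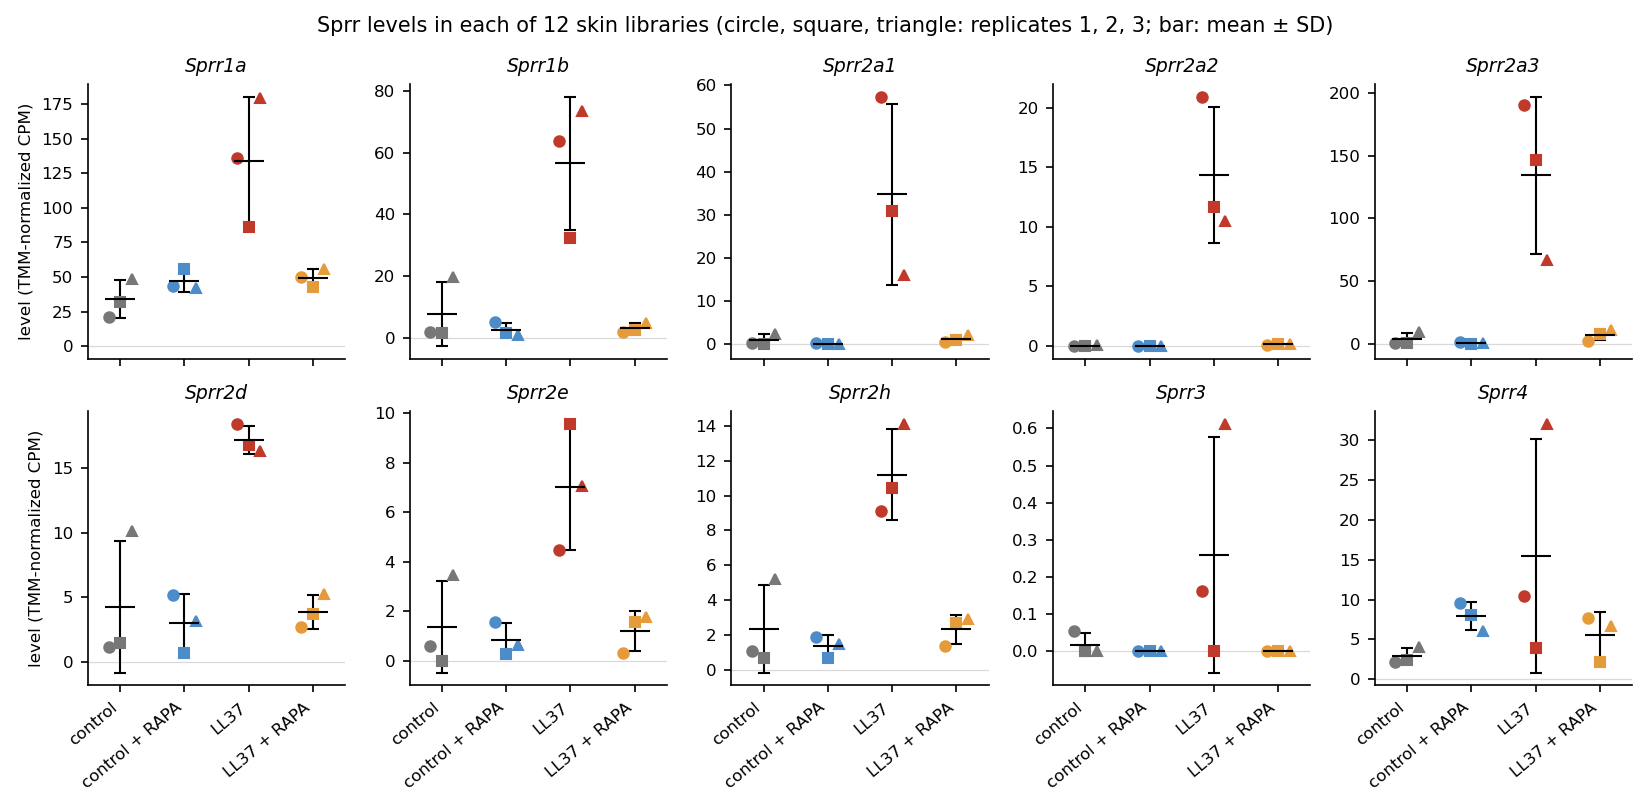
TMM-normalized CPM (y axis, linear, a scale of its own in each panel) of the 10 Sprr genes in 12 skin libraries by group, with circle, square and triangle for replicates 1, 2 and 3 and bars for the mean ± SD. In 8 of the 10 panels all LL37 points lie above all control and all LL37 + RAPA points, with Sprr3 and Sprr4 as the exceptions.

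Sprr2a1, Sprr2a2 and Sprr2a3 were low in control and had the largest fold changes of the 9 tested members over control. Sprr2 proteins are envelope precursors and form the largest subfamily within the Sprr family, and Sprr2a is also known as an antibacterial protein of the gut. Added together, the 3 genes read 0.917, 0.461 and 12.2 CPM in control, 2.01, 0 and 0.806 in control + RAPA, 268, 189 and 93.4 in LL37, and 3.23, 8.80 and 13.1 in LL37 + RAPA. The lowest LL37 library was thus several times the highest of the other 9. Summed before the fit, they differed by a log2 fold change of 5.34 (SE 1.02) over control and 4.45 (SE 0.96) over LL37 + RAPA. The mean of the sum in LL37 was 40.6 times the control mean, and 266 times the mean of control replicates 1 and 2.

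Sprr2a3 took most of these reads, between 70.8 and 77.4% of the counts in the LL37 libraries, with 16.4 to 21.4% on Sprr2a1 and 6.21 to 11.2% on Sprr2a2. By itself Sprr2a3 read 0.593, 0.461 and 9.64 CPM in control, 1.68, 0 and 0.806 in control + RAPA, 190, 146 and 66.9 in LL37, and 2.66, 7.61 and 10.8 in LL37 + RAPA. Its log2 fold change was 5.23 (SE 0.99) over control, 7.97 without control replicate 3, and 4.25 (SE 0.92) over LL37 + RAPA. LL37 replicate 3 was the lowest of its group and still did not overlap the other groups.

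Sprr2a1 read 0.324, 0 and 2.48 CPM in control, 0.325, 0 and 0 in control + RAPA, 57.3, 30.9 and 16.0 in LL37, and 0.474, 1.02 and 2.12 in LL37 + RAPA. It differed by 5.21 (SE 0.93) over control on the log2 scale, 7.71 without control replicate 3, and by 4.84 (SE 0.89) over LL37 + RAPA. For Sprr2a2, the counts were 0, 0 and 1 in control, 0 in all 3 control + RAPA libraries, 384, 191 and 222 in LL37, and 2, 4 and 4 in LL37 + RAPA. The summed counts of 797 and 1 gave a ratio of 813 over control after scaling, with an exact 95% counting interval of 145 to 32146, and with control + RAPA at the floor Sprr2a2 was at least 89.1-fold higher in LL37. It was 6.54 (SE 0.45) higher than LL37 + RAPA on the log2 scale.

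Sprr2d, Sprr2e and Sprr2h, also envelope precursors, were also low in control, with LL37 levels under 20 CPM. Sprr2d read 1.13, 1.44 and 10.2 CPM in control, 5.15, 0.642 and 3.11 in control + RAPA, 18.5, 16.8 and 16.3 in LL37, and 2.66, 3.68 and 5.23 in LL37 + RAPA. The 3 LL37 libraries lay close together, with a coefficient of variation of 6.45%, the smallest of any member in LL37. Its log2 fold change was 2.02 (SE 0.74) over control, 3.73 without control replicate 3, and 2.15 (SE 0.74) over LL37 + RAPA.

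Sprr2h, with the most proline codons, read 1.08, 0.666 and 5.22 CPM in control, 1.90, 0.642 and 1.5 in control + RAPA, 9.09, 10.4 and 14.1 in LL37, and 1.38, 2.66 and 2.93 in LL37 + RAPA. It was 2.27 (SE 0.61) higher than control on the log2 scale, 3.67 without control replicate 3, and 2.27 (SE 0.61) higher than LL37 + RAPA. Sprr2e was the lowest of the 3, with 0.593, 0 and 3.48 CPM in control, 1.57, 0.247 and 0.633 in control + RAPA, 4.46, 9.56 and 7.07 in LL37, and 0.285, 1.56 and 1.76 in LL37 + RAPA. Its LL37 libraries did not overlap the others, yet its log2 fold changes of 2.37 (SE 0.94) and 2.53 (SE 0.94) did not pass the thresholds in either comparison. Without control replicate 3, the value over control was 4.54 and both comparisons passed.

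Sprr3 and Sprr4 were the members whose groups overlapped. Sprr3, an envelope precursor of internal linings such as the oesophagus, had counts of 1, 0 and 0 in control, 0 in every library of control + RAPA and LL37 + RAPA, and 3, 0 and 13 in LL37. Most of its reads thus came from 1 LL37 library, and it was not tested. Sprr4 read 2.21, 2.41 and 4.06 CPM in control, 9.60, 8.10 and 6.10 in control + RAPA, 10.4, 3.98 and 32.1 in LL37, and 7.73, 2.17 and 6.72 in LL37 + RAPA. LL37 replicate 3 alone held 69.0% of the LL37 sum of Sprr4. The log2 fold change over control was 2.43 (SE 0.67) with that library and 1.35 without it, and over LL37 + RAPA 1.5 (SE 0.63) with it and 0.39 without it.

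Genes were taken as DEGs where edgeR gave a Benjamini-Hochberg adjusted p under 0.05 and the log2 fold change was larger than 1 in size. In LL37 vs control, 8 of the 9 tested members passed as higher, beside 8.73% of all tested genes, and Sprr2e did not. In LL37 vs LL37 + RAPA, 6 of the 9 passed, beside 4.33%, and Sprr2d, Sprr2e and Sprr4 did not. The choice of members used both contrasts, so nothing is read from those counts. The median log2 fold change of the tested members was 2.43 and 2.53, with the median of all tested genes at 0.00 in both. Placing Sprr2a2 at the low end of its counting interval left the first median at 2.43. In each comparison, 8 of the 10 members had LL37 libraries wholly above the other group, beside 23.8% and 17.6% of tested genes. Just inside the thresholds over control was Sprr2d and just outside was Sprr2e. Leaving out control replicate 3 gave 9 and 8 members past the thresholds.

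**Figure D3:**
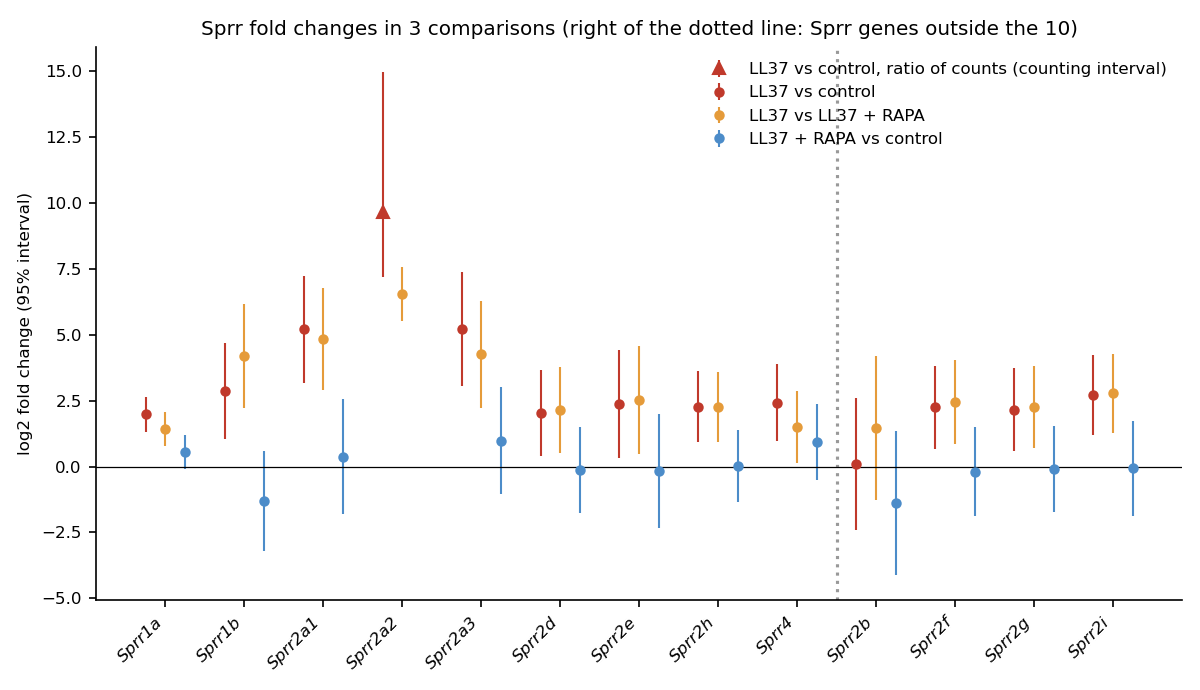
Log2 fold change (y axis) of 13 tested Sprr genes with 95% intervals for LL37 over control (red), LL37 over LL37 + RAPA (orange) and LL37 + RAPA over control (blue), the 4 genes right of the dotted line lying outside the 10. For Sprr2a2 the triangle is the ratio of summed counts over control with its counting interval and no value is drawn for LL37 + RAPA vs control, and the intervals of the last comparison include 0 for all 12 genes drawn.

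In LL37 + RAPA vs control, 0 of 9 passed in edgeR, beside 6.49% of all tested genes in either direction. At an unadjusted p under 0.05 there was 1, Sprr2a2, which rests on 2 to 4 counts per LL37 + RAPA library. Of all 17993 tested genes, 4930 met that mark. DESeq2 called 0 members, beside 1304 of the tested genes in either direction. Sprr1a had a log2 fold change of 0.55 (95% interval -0.10 to 1.20, adjusted p = 0.267), Sprr2h 0.01 (-1.36 to 1.37, adjusted p = 0.997), and Sprr2a3 0.98 (-1.05 to 3.01, adjusted p = 0.559). Most of these intervals are wide and leave room for differences of several fold in either direction. Libraries of 1 of the 10 members, Sprr2a2, lay wholly above control, beside 16.9% of tested genes. Of the other cell lists, 12 of 19 muscle markers were still lower than control and 4 of 13 neutrophil markers higher. These values depended on control replicate 3. Without it, all 9 tested members were above 0, against 6 with it, and their median was 1.58 in place of 0.37. Sprr1b turned from -1.32 to 0.81, Sprr2d from -0.14 to 1.58 and Sprr2e from -0.16 to 2.02. Sprr2h went from 0.01 to 1.41, Sprr2a1 from 0.37 to 2.88, Sprr1a from 0.55 to 0.90 and Sprr4 from 0.93 to 1.25. Sprr2a3, at 3.72 (adjusted p = 0.0399), was the 1 member to pass without that library. This comparison shares its libraries with the previous ones. Its log2 fold change is the difference between those of the contrasts used in choosing the members, so its counts and adjusted p are descriptions.

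Control skin given RAPA was compared with control in the same way. In control + RAPA vs control, 0 of 9 members passed in edgeR, beside 0% of all tested genes. DESeq2 called 0 members, beside 53 of the tested genes. At an unadjusted p under 0.05 there was 1 member, beside 1556 of all 17993 tested genes. The exception was Sprr4, an envelope gene known to respond to ultraviolet light, with a log2 fold change of 1.45 (SE 0.66, adjusted p = 0.576) and every control + RAPA library above every control library. The share of all tested genes whose libraries lay in that order was 8.25%. Without control replicate 3, the value of Sprr4 was 1.76 (adjusted p = 0.851), 0 of 9 members passed, and 7 of the 9 were above 0 in place of 2. In LL37 + RAPA vs control + RAPA, 1 of 9 members passed, beside 8.39% of tested genes in either direction. It was Sprr2a2 (adjusted p = 0.0387), with 2, 4 and 4 counts against 0, 0 and 0, and the sum over the 3 Sprr2a genes did not pass (log2 fold change 3.18, adjusted p = 0.0796). The LL37 + RAPA libraries lay wholly above those of control + RAPA for 3 of the 10 members, Sprr2a1, Sprr2a2 and Sprr2a3, beside 19.5% of tested genes.

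The effect of RAPA in LL37 skin was also set against its effect in control skin. For Sprr1a, LL37 minus LL37 + RAPA was 1.44 on the log2 scale, control + RAPA minus control was 0.48, and their sum, the interaction, was 1.92 (SE 0.42). RAPA thus went with a lower level in LL37 skin, while its difference in control skin was above 0 and not past the thresholds. Sprr1a was the 1 of 9 members past the thresholds for this interaction, beside 2.38% of all tested genes in either direction. This measure contains the LL37 vs LL37 + RAPA contrast used in choosing the genes. It passed for 2 members without control replicate 3 or without LL37 replicate 2, for 1 without LL37 replicate 3, and for 0 without any 1 of the other 9 libraries. DESeq2 gave 3 members, but it also called more of the tested genes, 1008 against 429 in edgeR.

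Levels can be compared between genes only per length. Per kilobase of annotated exon, Sprr1a had the highest mean level in every group, at 41.9 CPM in control and 166 in LL37. Its libraries did not overlap those of the gene next by mean in any group. In LL37 Sprr1a was followed by Sprr1b at 68.1, Sprr4 at 67.1, Sprr2a3 at 46.6 and Sprr2d at 25.3 CPM per kilobase. Each of these overlapped the next, except that Sprr2d lay wholly above Sprr2h. The LL37 ranges of Sprr1a and Sprr4 did overlap, at 107 to 222 and 17.2 to 139 CPM per kilobase. The lower members were Sprr2h at 14.9, Sprr2a1 at 11.6, Sprr2e at 10.9 and Sprr2a2 at 4.93, again overlapping from one to the next, and Sprr3 was last at 0.212. In control the order after Sprr1a was Sprr4 at 12.5, Sprr1b at 9.33 and Sprr2d at 6.23, all overlapping. The levels of the Sprr2a genes depend on how shared reads were divided and on their long annotated exons. These lengths were 2883 to 3003 bases, against 806 for Sprr1a and 830 for Sprr1b. Before division by length, the LL37 means of Sprr2a3 and Sprr1a were 134 and 133 CPM. The level of Sprr4 depends on its short annotated exon.

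The members did not share 1 order over the LL37 libraries. Sprr2a1, Sprr2a2, Sprr2a3 and Sprr2d were highest in replicate 1, Sprr1a, Sprr1b, Sprr2h, Sprr3 and Sprr4 in replicate 3, and Sprr2e in replicate 2. Replicate 1 was 3.59 times replicate 3 for Sprr2a1 and 2.84 times for Sprr2a3, while replicate 3 was 3.07 times replicate 1 for Sprr4. Krt16 and Krt6b followed the first order, with replicate 1 at 2.65 and 2.03 times replicate 3. The 15 neutrophil markers summed to 322 CPM in LL37 replicate 3 against 2361 and 3225 in the others, and the 20 skeletal muscle markers to 893 against 29.1 and 32.4. With 3 libraries these orders are descriptions, and the part of cell content in them was not tested. Without LL37 replicate 3, the fold changes of Sprr2a1 and Sprr2a3 over control were 5.59 and 5.59 on the log2 scale.

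Of the 7 Sprr genes outside the 10, 4 were tested. These genes and the lists below were chosen with earlier results of these data known, so their adjusted p are descriptions and not independent tests. Sprr2f, Sprr2g and Sprr2i rose in LL37 vs control and were lower with RAPA, 3 of 4 in each comparison beside 8.73% and 4.33% of tested genes. Sprr2i read 0.108, 0.0513 and 0.632 CPM in control, 1.52, 2.33 and 1.46 in LL37 and 0.237, 0.164 and 0.361 in LL37 + RAPA, with a log2 fold change of 2.71 (SE 0.70, adjusted p = 0.00879) over control and 2.77 (SE 0.69, adjusted p = 0.0150) over LL37 + RAPA. The values of all 3 over control were larger without control replicate 3, at 4.36 for Sprr2i, 4.43 for Sprr2f and 4.25 for Sprr2g. Sprr2f differed by 2.25 (SE 0.72, adjusted p = 0.0260) and 2.45 (SE 0.72, adjusted p = 0.0304), and Sprr2g, annotated as a polymorphic pseudogene, by 2.16 (SE 0.72, adjusted p = 0.0306) and 2.25 (SE 0.72, adjusted p = 0.0401). Sprr2b had 0.09 (SE 1.14, adjusted p = 0.957) and 1.47 (SE 1.24, adjusted p = 0.414), and its control replicate 3, at 2.48 CPM, was above every LL37 library. Without that library Sprr2b had 3.96 over control (adjusted p = 0.0484). The calls of these low genes were not firm, since scaling to keratinocyte genes or a fit of the compared groups only left 1 of the 3 over control. Sprr2f and Sprr2g also lost the call over control without control replicate 1 or 2, Sprr2f without LL37 replicate 2 and Sprr2g without LL37 replicate 1, and 1 Sprr gene of these passed over LL37 + RAPA without LL37 replicate 2 or LL37 + RAPA replicate 1 or 2.

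The remaining Sprr genes were near the floor. Sprr2j-ps had 9, 17 and 18 counts in LL37 and 0, 1 and 0 in LL37 + RAPA, a ratio of 53.3 with an exact 95% counting interval of 9.07 to 2151. Sprr2k had 4, 3 and 9 counts in LL37, and Sprr2c-ps 1 count in all 12 libraries. Upstream windows were at hand for Sprr2b, Sprr2f, Sprr2i and Sprr2k, and all 4 held the AP-1 letters, the octamer and TATAAA, as Sprr2d, Sprr2e and Sprr2h did.

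The cornified envelope list holds loricrin, involucrin, filaggrins, late cornified envelope (Lce) proteins and enzymes of the envelope, at the locus on chromosome 3 and elsewhere in the genome, without Sprr genes. Of 51 tested, 4 rose and 0 fell in LL37 vs control, with a median log2 fold change of 0.27, and 8.73% of all tested genes rose. Of the same 51, 10 were higher and 0 lower in LL37 than in LL37 + RAPA, with a median of 0.64, beside 4.33% of all tested genes. Loricrin (Lor) and involucrin (Ivl), the main partners of Sprr proteins in the envelope, were named after their values were seen, and had -0.45 and -0.38 over control, neither past the thresholds. Those with the largest changes among the genes called were Lce3f at 2.32 (SE 0.70, adjusted p = 0.0194) and 2.45 (SE 0.69, adjusted p = 0.0256), Prr9 at 1.97 (SE 0.68, adjusted p = 0.0357) and 2.13 (SE 0.67, adjusted p = 0.0393), and Tchh, a hair sheath protein, at 1.27 (SE 0.17, adjusted p = 0.000166) over control. Lce3e was called in LL37 vs LL37 + RAPA, at 2.30 (SE 0.77, adjusted p = 0.0489), and not over control, at 1.44 (SE 0.73, adjusted p = 0.135). Of the 21 Lce genes, all tested, 2 passed over control and 6 over LL37 + RAPA, with medians of 0.31 and 0.89, and of the 10 other tested genes of this list at the locus, 2 and 4 passed. Several of these calls hung on single libraries. The call of Prr9 over control was lost on leaving out any 1 of 6 libraries, control replicate 3 among them (2.27, adjusted p = 0.0608), and that of Lce3f without control replicate 1 or 2, although it was 4.31 without control replicate 3. Over LL37 + RAPA, the calls of Prr9, Lce3e and Lce3f were lost for 7, 8 and 5 libraries.

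**Figure D4:**
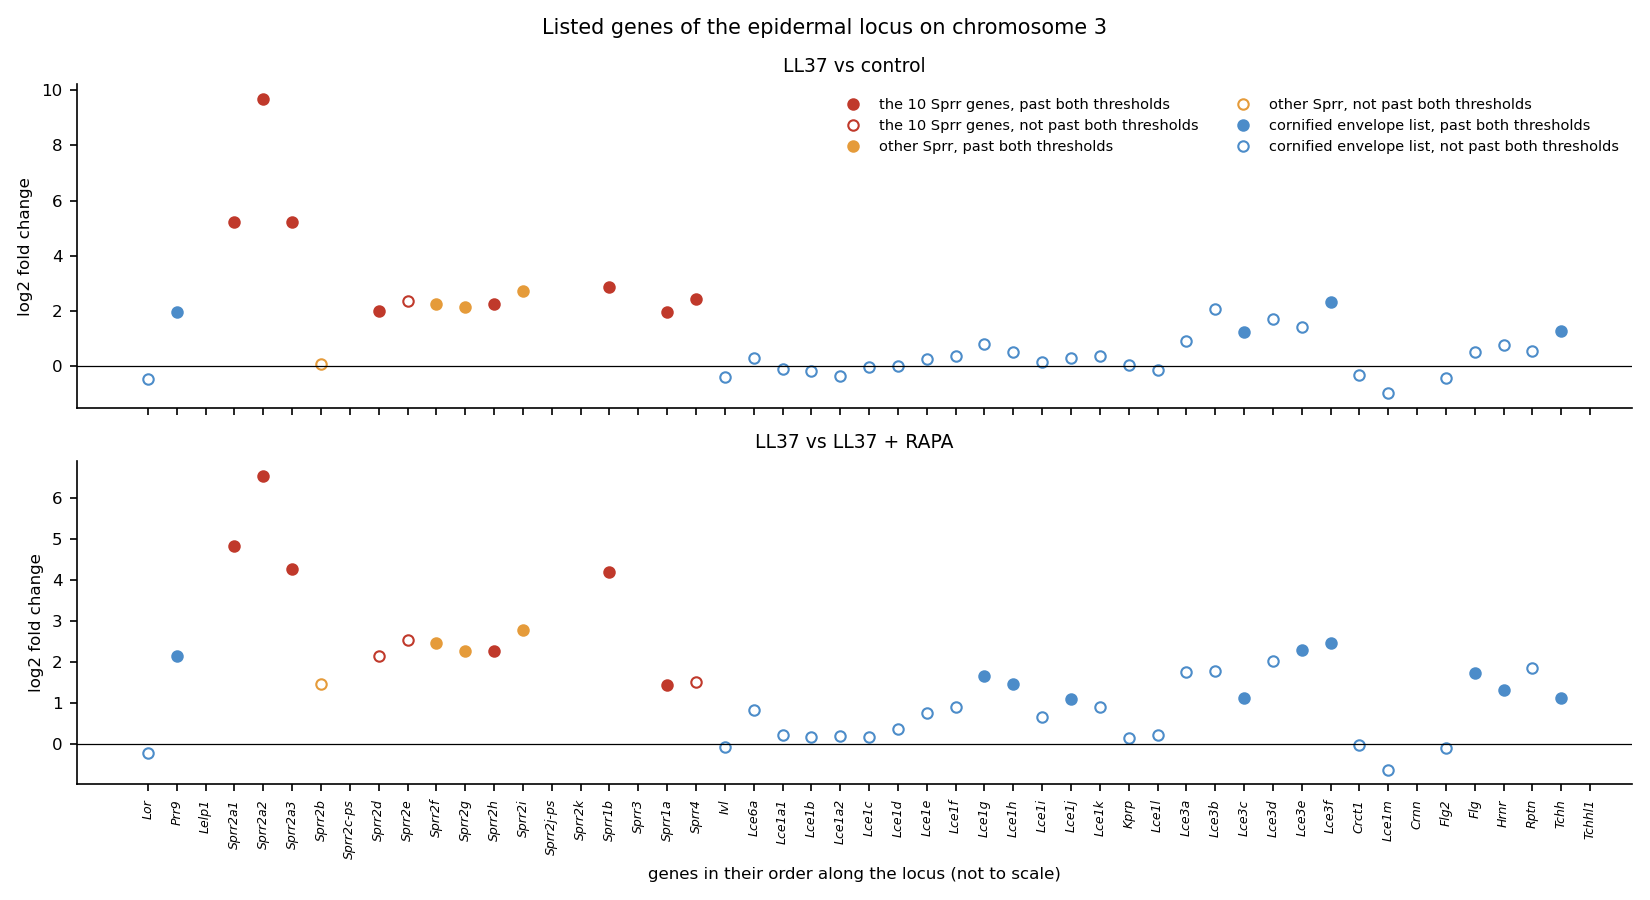
Log2 fold change (y axis) of the listed genes of the epidermal locus on chromosome 3, in genomic order and not to scale, in LL37 vs control (top) and LL37 vs LL37 + RAPA (bottom), with filled points past both thresholds and Sprr2a2 at its ratio of counts in the top panel. In the top panel the tested members, chosen by this contrast, lie between 1.98 and 9.67 and the 21 Lce genes between -0.98 and 2.32, and names without a point were not tested.

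Stress keratins, which mark the same activated epidermal state as Sprr1 and Sprr2 genes, were measured beside them. All 4 rose in LL37 vs control and 3 were higher in LL37 than in LL37 + RAPA, beside 8.73% and 4.33% of all tested genes. Krt16 read 24.4, 36.6 and 300 CPM in control, 88.2, 36.2 and 41.5 in control + RAPA, 3772, 2746 and 1425 in LL37, and 52.1, 126 and 235 in LL37 + RAPA. It differed by 4.46 (SE 0.95, adjusted p = 0.00302) and 4.27 (SE 0.95, adjusted p = 0.00914) on the log2 scale. Krt6b differed by 3.85 (SE 1.33, adjusted p = 0.0355) and 4.54 (SE 1.38, adjusted p = 0.0338), Krt6a by 2.15 (SE 0.42, adjusted p = 0.00182) and 1.57 (SE 0.41, adjusted p = 0.0197), and Krt17 by 1.05 (SE 0.18, adjusted p = 0.000747) and, below the fold limit, 0.79 (SE 0.18, adjusted p = 0.00962). Without control replicate 3, the values over control were 6.43 for Krt16, 7.50 for Krt6b and 2.83 for Krt6a. The call of Krt6b over control was lost without control replicate 1 or 2 or LL37 replicate 1 or 2, and over LL37 + RAPA for 5 libraries. Krt6a lost its call over LL37 + RAPA without LL37 replicate 1 or LL37 + RAPA replicate 1 or 2, and Krt17 fell below the fold limit over control without control replicate 1 or LL37 replicate 1.

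Factors known to act on Sprr or envelope genes were listed as 29 regulators, all tested. Of these, 7 rose and 0 fell in LL37 vs control and 4 were higher and 0 lower in LL37 than in LL37 + RAPA. The shares of all tested genes called higher were 8.73% and 4.33%. Elf3, an epithelial Ets factor, read 1.29, 1.28 and 2.32 CPM in control, 14, 6.37 and 6.03 in LL37 and 0.759, 0.860 and 1.40 in LL37 + RAPA, with log2 fold changes of 2.43 (SE 0.46, adjusted p = 0.00152) and 3.12 (SE 0.48, adjusted p = 0.00206). Ehf, of the same family, differed by 1.43 (SE 0.25, adjusted p = 0.000821) and 1.15 (SE 0.24, adjusted p = 0.00747). Fosl1, an AP-1 subunit, differed by 1.40 (SE 0.19, adjusted p = 0.000193) and 1.18 (SE 0.19, adjusted p = 0.00239). Batf and Junb, which also pair within AP-1, rose by 2.28 (SE 0.37, adjusted p = 0.000582) and 1.46 (SE 0.26, adjusted p = 0.00101) over control and had 0.92 and 0.91 over LL37 + RAPA, neither past the thresholds. Without control replicate 3, 6 regulators rose over control, and without LL37 replicate 1 the value of Ehf over LL37 + RAPA was 0.89, below the fold limit.

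The 5 tested genes outside the family whose log2 CPM ran most like the mean of the 9 tested members over the 12 libraries were Gjb2 (Pearson r = 0.983), Krt16 (0.981), BC100530 (0.979), Gm5478 (0.977) and Gsdmc2 (0.971). The 12 points share their groups, and r is a description. Gjb2, the gap junction protein connexin 26, read 3.72, 3.84 and 32.4 CPM in control, 11, 2.82 and 3.17 in control + RAPA, 154, 117 and 96.9 in LL37, and 4.51, 11.5 and 19.1 in LL37 + RAPA, so control replicate 3 stood apart in this gene too.

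Other cell lists moved with LL37. Of all 17993 tested genes, 8.73% were called higher over control and 4.33% over LL37 + RAPA. Those are 1570 of 3516 and 779 of 1823 genes called in either direction. All 19 tested skeletal muscle markers fell in LL37 vs control and were lower in LL37 than in LL37 + RAPA, and the sum of the list was 39385 to 57029 CPM in control, 41592 to 73402 in control + RAPA, 29.1 to 893 in LL37 and 3372 to 7281 in LL37 + RAPA, with Tnnc2 at 0 in all LL37 libraries. Of 13 tested neutrophil markers, 12 rose over control and 6 were higher than in LL37 + RAPA, with sums of 27.3 to 117 CPM in control, 322 to 3225 in LL37 and 173 to 568 in LL37 + RAPA. Of 12 macrophage markers, 5 rose over control and 2 were higher than in LL37 + RAPA, and of 12 adipocyte markers, 9 fell and 11 were lower. In the keratinocyte list, 3 of 18 rose (Dsg3, Itga6 and Krt14), 1 fell, and 0 passed in LL37 vs LL37 + RAPA by edgeR. In that comparison 6 had an adjusted p under 0.05 but stayed below the fold limit. At an unadjusted p under 0.05 there were 8 of the 18, beside 6838 of all 17993 tested genes. When libraries were scaled to the summed keratinocyte list, the median of all tested genes moved by -0.47 over control and -0.34 over LL37 + RAPA, all 9 tested members stayed above 0 in both comparisons, and the lowest of them were 1.5 and 1.08 on the log2 scale. Under this scaling 7 members passed over control in place of 8, and 6 over LL37 + RAPA as before.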

How the data were processed

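RNA of whole mouse skin was sequenced in 12 libraries, 3 from each of 4 groups set by the labels. The authors deposited raw counts per gene by Ensembl identifier, without normalization or pooling. The study's methods name HTSeq 0.6.0 for paired reads, whereas the submitters' processing notes list HISAT2 2.0.5, StringTie 1.3.3b, featureCounts 1.5.0-p3, DESeq2 1.16.1 and mm10. Strand use and the handling of reads that fit several genes are not given in the sources used here. Of 52636 identifiers, 52403 had a symbol (GENCODE M21, GRCm38). Depth was 15734559 to 23271784 counts.

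All 12 libraries were fitted together in R 4.3.3 with edgeR 4.0.16 (TMM scaling and the quasi-likelihood F-test), and filterByExpr with the groups kept 17993 genes. DEGs had an adjusted p under 0.05 over all tested genes and an absolute log2 fold change above 1. SE is the size of the log2 fold change divided by the square root of F. The log2 CPM used a prior count of 2. The fit was tested on simulated data.

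Members and lists were chosen with earlier results of these data known, so adjusted p given for genes of the lists are descriptions. Named genes were all Sprr genes, short lists in full, and in each other list the 3 genes with the largest change among those called in LL37 vs control and the 3 in LL37 vs LL37 + RAPA, plus the 5 genes most like the members. Of the 183 listed symbols, 2 were not among the identifiers.

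Alternatives were 4 scalings (size factors of DESeq2, library totals, TMM without muscle genes, keratinocyte genes), filters of 1 count in total or 10 in every library, DESeq2 1.42.0, no fold limit, the compared groups only, summed Sprr2a counts, leaving out 1 library at a time, and a block for the replicate number.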

Additional observations from a re-analysis of the deposited data

Results flagged for a closer look

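For 9 of the genes named here, the interaction of LL37 and RAPA passed the thresholds in the edgeR fit, with adjustment over all tested genes. Values are LL37 minus LL37 + RAPA, less the value of control minus control + RAPA, on the log2 scale. They were positive for Sprr1a at 1.92 (SE 0.42), Krt17 at 1.08 (SE 0.25, adjusted p = 0.0411), Tchh at 1.24 (SE 0.24, adjusted p = 0.0278), Elf3 at 3.14 (SE 0.68, adjusted p = 0.0359) and Itga6 at 1.17 (SE 0.25, adjusted p = 0.0337). They were negative for the muscle gene Mb at -3.99 (SE 0.90, adjusted p = 0.0395) and the adipocyte genes Plin4 at -1.54 (SE 0.37, adjusted p = 0.0481), Adipoq at -2.48 (SE 0.56, adjusted p = 0.0400) and Plin1 at -2.86 (SE 0.59, adjusted p = 0.0310). Sprr1a was chosen with part of this contrast known, and its call was not firm, since 0 members passed without any 1 of 9 libraries. The other genes come from lists chosen with earlier results known, and all but Krt17 were named by their change in parts of this contrast. All 9 values are therefore descriptions. Of all tested genes, 2.38% passed the thresholds for the interaction in either direction. Groups of 3 are too small for a test of outlying samples.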

How the results depend on the processing

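Of the members, 8 passed as higher than control and 6 as higher than LL37 + RAPA. Requiring 10 counts in every library left 5 members tested and gave 5 and 3, and it left no other Sprr gene to test (0 and 0 called) and 2 cornified envelope genes over control. The interaction gave 2 members with every gene of at least 1 count in total, and 3 with DESeq2, against 1. Of all tested genes, DESeq2 called 1008 for the interaction, against 429 in edgeR. Fits of the compared groups only gave 1 other Sprr gene over control in place of 3, and 1 cornified envelope gene in place of 4. Scaling to keratinocyte genes gave 1 other Sprr gene over control and 4 cornified envelope genes over LL37 + RAPA in place of 10. With no limit on the fold change, cornified envelope calls were 11 and 21. Leaving out each library in turn gave 6 to 9 and 5 to 8 members, 0 to 1 in LL37 + RAPA vs control, 0 to 0 in control + RAPA vs control, 0 to 2 in the interaction, 2 to 5 and 1 to 4 other Sprr genes, and 2 to 8 and 4 to 12 cornified envelope genes. The filter on low counts was applied anew in each of these fits, so more of the other Sprr genes could be tested than in the main fit. Leaving out control replicate 3 gave the highest values over control for members and other Sprr genes. Cornified envelope calls over control were 2 without control replicate 1 or 2, 7 without control replicate 3 and 8 without LL37 replicate 2, and those over LL37 + RAPA were 4 without LL37 replicate 1 and 5 without any 1 of the LL37 + RAPA libraries. Without control replicate 3, Sprr2g in LL37 + RAPA vs control turned from -0.10 to 2.0 (adjusted p = 0.0476), and over all libraries left out its range was -0.59 to 2.0. Without that library the same comparison also changed sign, with no call, for Sprr1b (0.81), Sprr2d (1.58), Sprr2e (2.02), Sprr2b (2.50), Sprr2f (1.98) and Sprr2i (1.60). Scaling by library totals moved the median of all tested genes by 0.13 in LL37 + RAPA vs control. With the replicate number as a block, members numbered 8 and 7, other Sprr genes 3 and 2, and cornified envelope genes 4 and 8. The deviations of same-numbered libraries correlated between -0.188 and 0.263, with 4 of 18 pairs over 0.1. Libraries of unlike number were not compared in this way, so these values cannot decide whether same-numbered libraries were paired. The cause of these shifts was not tested beyond the fewer genes or libraries that an alternative leaves. Depth limits Sprr3, Sprr2k and Sprr2c-ps, whose counts lay near the floor.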
